A study of Homo sapiens with 5 samples.

Results

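The immunoglobulin heavy chain locus (IGH), kappa light chain locus (IGK) and lambda light chain locus (IGL) were examined for peaks of chromatin immunoprecipitation and sequencing (ChIP-seq). All called peaks with a midpoint in chr14:106030000-107290000 (IGH), chr2:89150000-90280000 (IGK) or chr22:22380000-23270000 (IGL) of the human build hg19 were taken, and the IGH locus was divided 300 kb above its lower end into a constant part below and a variable part above. The 6 deposited peak lists together held 1211 such peaks among 1150695. Peaks were taken by position and not by any measured value, but the loci themselves were chosen with earlier results of these data known.

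The study used U2932 cells, an established human B cell lymphoma line, grown without treatment. Their cross-linked and sonicated chromatin was precipitated with PRDM11 antibody 1 or 2 (rabbit polyclonals; PRDM11 belongs to the PR domain family of transcriptional regulators) or with an antibody to RNA polymerase II, which transcribes protein-coding genes. Rabbit IgG and unprecipitated input served as controls, and peaks of each precipitate were listed once against IgG and once against input. There was 1 library of each of the 5 kinds, so values carry no replicate error and no p-value, and intervals are exact 95% intervals (Clopper-Pearson for shares, Poisson for densities) that cover counting error only.

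Each immunoglobulin locus holds arrays of variable (V), joining (J) and, in IGH, diversity (D) segments beside the constant (C) genes that encode the rest of the chain. In developing B cells 1 V segment is joined to the D and J segments by deletion or inversion of the DNA between them, and the joined gene is transcribed from the promoter of its V segment under enhancers that lie close to the C genes. Mature B cells can then exchange the IGHM constant gene for another by recombination between repetitive switch regions.

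In the order of RefSeq genes (GRCh38.p14), IGH began at its lower coordinate with IGHA2 and held 9 C genes, ending with IGHD (delta chain) and IGHM (mu chain), then 6 J segments, 27 D segments and 48 V segments, with a further 79 V pseudogenes. IGK began with IGKC (kappa chain), followed by 5 J and 44 V segments with 32 V pseudogenes. IGL ran the other way, with 37 V segments and 36 V pseudogenes first and 7 J segments alternating with 4 C genes and 3 C pseudogenes at its upper end, and it also held 6 protein-coding genes, among them VPREB1 (a component of the surrogate light chain) and PRAME (a tumour antigen). These lists serve for order only: no annotation of hg19 was used, so peaks are given by position and not assigned to genes.

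Between IGHM and IGHJ6, where the switch region of IGHM lies, RefSeq lists 4 miRNA hairpins. They are shown because they carry the short repeat typical of switch regions, and the copies of GAGCU, searched on the hairpin strand, are in capitals. All 4 are on the minus strand of GRCh38.p14 and are written 5′ to 3′ as RNA.
MIR4539: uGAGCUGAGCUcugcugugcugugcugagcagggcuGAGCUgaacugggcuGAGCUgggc
MIR4507: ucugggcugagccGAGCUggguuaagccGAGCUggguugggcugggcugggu
MIR4538: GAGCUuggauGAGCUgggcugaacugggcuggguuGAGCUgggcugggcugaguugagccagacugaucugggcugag
MIR4537: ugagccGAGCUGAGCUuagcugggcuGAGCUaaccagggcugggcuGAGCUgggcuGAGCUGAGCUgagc
GAGCU occurred 4 times in MIR4539, 2 times in MIR4507, 3 times in MIR4538 and 6 times in MIR4537. Of 1562 human hairpins in the same table, 172 held GAGCU at all and 21 (1.34%) held it 2 or more times; allowing either strand (GAGCU or AGCUC), 245 (15.7%) held it.

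Against IgG, the 3 loci held 175 of 50161 RNA polymerase II peaks, 398 of 465837 antibody 2 peaks and 13 of 13499 antibody 1 peaks. Against input they held 215 of 80364, 384 of 486796 and 26 of 54038. RNA polymerase II peaks were packed at the lower end of IGK and the upper end of IGL, the ends with the C genes in RefSeq order. In IGH they covered most DNA at the upper end of the constant part, and a second set lay at the upper end of the locus. Long stretches held none. Antibody 2 peaks were spread along IGL but thinned out in much of IGH and IGK, and antibody 1 peaks were few throughout.

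**Figure D1:**
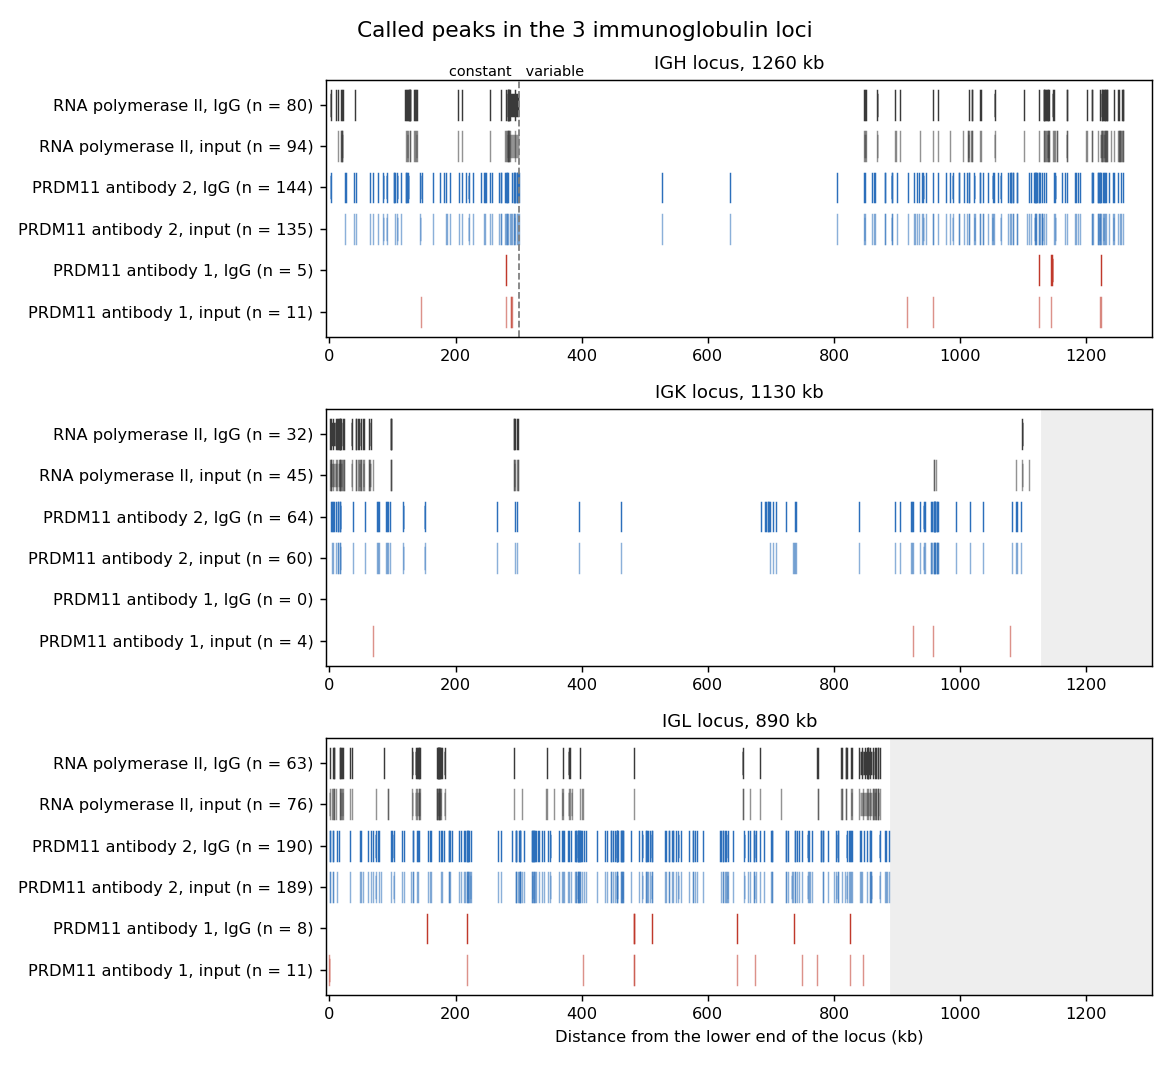
Called peaks along IGH, IGK and IGL, by library and control; the horizontal axis is the distance from the lower end of each locus in kb, each vertical mark is 1 peak and wider blocks are drawn to their width. The dashed line divides IGH into its constant and variable parts. The long blank stretch of IGH was empty of RNA polymerase II and antibody 1 peaks against both controls.

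RNA polymerase II covered more of every locus than of the rest of its chromosome. In the constant part of IGH, 32 peaks against IgG covered 8.52% of the DNA, against 0.585% of the rest of chromosome 14, a ratio of 14.6. Of these 25.6 kb, 13.8 kb were 1 peak that crossed the boundary of the part, and up to that peak 4.09% of the DNA was covered. In the variable part 48 peaks covered 2.09%, a ratio of 3.57. In IGK 32 peaks covered 2.02%, against 0.424% of the rest of chromosome 2, and in IGL 63 peaks covered 4.60%, against 1.58% of the rest of chromosome 22.

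Counted as peaks per Mb, the contrast was smaller, because wide domains count once. The constant part of IGH held 106.7 RNA polymerase II peaks per Mb (73.0 to 150.6), and 61 of 2963 bins of 1 Mb over all chromosomes held as many or more. Since that part is only 300 kb long, its scaled density and the bin counts are not strictly alike. The variable part of IGH held 50 per Mb, IGK 28.3 and IGL 70.8, against 17.6, 12.1 and 45.9 per Mb in the rest of chromosomes 14, 2 and 22. For the variable part, IGK and IGL, 294, 541 and 170 of the bins held as many or more. The median bin of 1 Mb held 6.

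Wide RNA polymerase II peaks were frequent in the loci. Of the 175 peaks against IgG, 19 (10.9%) were at least 1000 bp wide, against 4.15% of the whole list. They lay 4 in the constant part of IGH, 4 in its variable part, 6 in IGK and 5 in IGL.

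The widest RNA polymerase II peak of the whole list against IgG was in IGH, at chr14:106317108-106330916, 13809 bp. It crossed the boundary drawn between the constant and variable parts, and its midpoint lay in the constant part. Against input it was called at chr14:106317106-106330917, 13812 bp, and ranked 3 by width in that list. A peak of 1026 bp, chr14:106315953-106316978, lay directly below it. With 7 further peaks these formed a group, joined where peaks were 10 kb or less apart, of 28.2 kb that held 37.6% of all bases under RNA polymerase II peaks in IGH.

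The other wide peaks of the constant part were chr14:106167901-106169289 (1389 bp) and chr14:106284200-106285400 (1201 bp). The first belonged to a group of 13 peaks over 19.9 kb, with 24.4% of it covered. RNA polymerase II was called in several separate groups along the constant part, with stretches of 79.4 kb, 64.5 kb and 43.6 kb without a peak between them.

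In IGK, RNA polymerase II was concentrated at the lower end, the end that in RefSeq order holds IGKC. A group of 13 peaks at chr2:89151449-89173070, 21.6 kb long, held 67.9% of the bases under RNA polymerase II peaks in the locus. Its wide members were chr2:89153076-89158301 (5226 bp, rank 24 by width in the list), chr2:89158379-89161665 (3287 bp), chr2:89163704-89166237 (2534 bp) and chr2:89167923-89169389 (1467 bp). The next group, over 30.4 kb, had 2 wide peaks, chr2:89184807-89186278 (1472 bp) and chr2:89196256-89197874 (1619 bp). The RNA polymerase II peak nearest below the locus, chr2:89145066-89146152 and 1087 bp wide, lay outside the boundary and was not counted.

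In IGL the concentration was at the upper end, again the end with the C genes in RefSeq order. A group of 14 peaks at chr22:23220121-23252398 covered 70.4% of its 32.3 kb and held 55.5% of the bases under RNA polymerase II peaks in IGL. It contained chr22:23221403-23226019 (4617 bp), chr22:23226072-23232171 (6100 bp, rank 13), chr22:23234436-23240790 (6355 bp, rank 11) and chr22:23243651-23246103 (2453 bp). Against input the first 2 of these were 1 peak of 10823 bp, chr22:23221400-23232222, rank 9. The remaining wide peak of IGL, chr22:22384933-22386021 (1089 bp), stood at the opposite end of the locus.

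**Figure D2:**
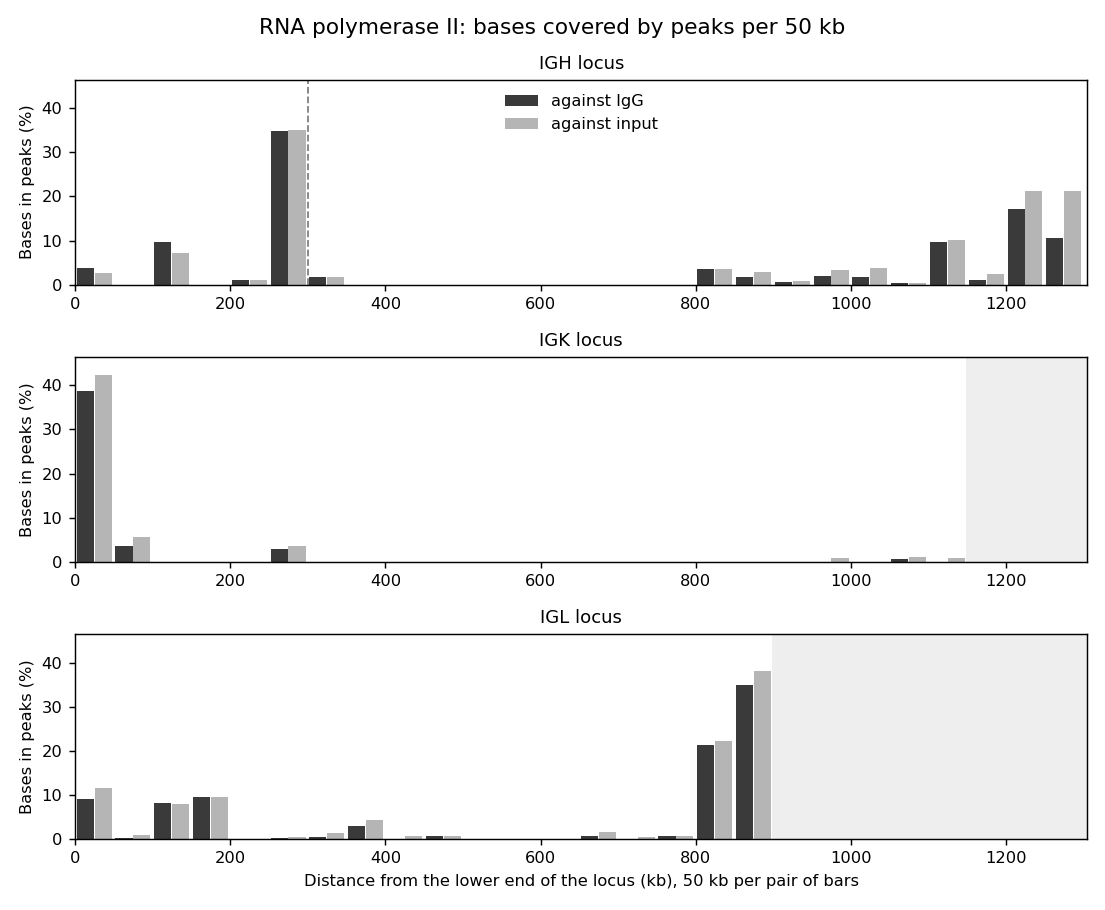
Percent of bases under RNA polymerase II peaks in successive bins of 50 kb, by distance from the lower end of each locus in kb; dark bars are lists against IgG and light bars lists against input, and the last bin of each locus is shorter. The highest bars stand at the upper end of the constant part of IGH, the lower end of IGK and the upper end of IGL.

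The upper end of IGH, where RefSeq order places V segments, held a second set of RNA polymerase II peaks. The group at chr14:107251065-107263117 had 10 peaks over 12.1 kb, covered 65.8% of it and held 17.4% of the RNA polymerase II bases of IGH. Its wide members were chr14:107251065-107254111 (3047 bp, rank 83), chr14:107256521-107258096 (1576 bp) and chr14:107258958-107260076 (1119 bp). The fourth wide peak of the variable part, chr14:106877672-106878803 (1132 bp), was the first RNA polymerase II peak above the long empty stretch.

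That stretch ran from the upper edge of the 13809 bp domain to this peak, chr14:106330917-106877671, 546.8 kb without an RNA polymerase II peak. Against input it was 546.753 kb, so both controls placed its edges within 1 bp of each other. No antibody 1 peak was called in it against either control. Antibody 2 was called there at 3 places, starting at 106557202, 106665507 and 106834653, each 123 bp wide, and the same 3 peaks were listed against both controls.

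The density of antibody 2 in the stretch was 5.49 peaks per Mb (1.13 to 16.0). Above it, from 106877672 to the end of the locus, 87 antibody 2 peaks gave 211.0 per Mb (169.0 to 260.3), and below the domain 45 peaks gave 156.7 per Mb (114.3 to 209.7). The 2 intervals on either side did not overlap that of the stretch. RNA polymerase II had 31 peaks below the domain and 48 above the stretch. The stretch was drawn between neighbouring RNA polymerase II peaks against IgG, so it held 0 of them by construction.

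For comparison, a window of 500 kb held a median of 79 antibody 2 peaks. Windows with at most 3 antibody 2 peaks and no antibody 1 or RNA polymerase II midpoint made up 321 of 5993, or 5.36%; these include unsequenced parts of the assembly, which the lists do not mark. The longest distance between neighbouring antibody 2 peaks in IGH, 226.9 kb at chr14:106330263-106557201, was 1 of 2 at least as long among 13867 on chromosome 14, where the median was 3.585 kb. The next longest distances in IGH were 169.0 kb, chr14:106665630-106834652, and 108.2 kb, chr14:106557325-106665506, and they adjoin it but for single peaks. For RNA polymerase II the 546.8 kb was less unusual: 31 of 1615 distances on chromosome 14 were at least as long.

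The lists hold no read counts, genotype or mappability. DNA missing from this line, DNA present without a called peak and DNA in which reads could not be placed cannot be told apart at this stretch.

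IGK also had a long stretch without RNA polymerase II, but antibody 2 peaks were called at places along it. From chr2:89449769 to 90248686, 798.9 kb, no RNA polymerase II peak was called against IgG and 4 were called against input. Its ends were also drawn at neighbouring RNA polymerase II peaks against IgG, so it held 0 of those by construction. Antibody 2 had 41 peaks against IgG and 39 against input in this stretch, 51.3 per Mb (36.8 to 69.6), against 76.7 per Mb (48.6 to 115.1) in the 299.8 kb below it. These 2 intervals overlap. Above it stood a lone RNA polymerase II peak, chr2:90248687-90249027 (341 bp).

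Within IGK the antibody 2 peaks were uneven. The longest stretches without one were chr2:89612600-89834919 (222.3 kb), chr2:89300876-89415966 (115.1 kb) and chr2:89889785-89990252 (100.5 kb). Against input the first reached 236.1 kb, chr2:89612600-89848695. Its 222.3 kb up to 89834919 were empty in all 6 lists. Here too, missing or unsequenced DNA and DNA in which reads could not be placed cannot be told from DNA without a called peak. At the other extreme, 10 antibody 2 peaks fell within 10 kb at chr2:90104135-90113291, none of them in an RNA polymerase II peak against IgG. The same interval held 10 antibody 2 peaks against input and also a group of 3 RNA polymerase II peaks against input, chr2:90108170-90111752. This was the densest such window of IGK, and 0.149% of antibody 2 peaks in the whole list began a window of 10 kb with as many. The densest of IGL, chr22:22769841-22779394, held 11, and 0.0592% of the list began one with as many.

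IGL showed no comparable blank. Its longest stretch without an antibody 2 peak was chr22:22605128-22647106, 42.0 kb, the same against both controls, followed by chr22:22971868-22999110 (27.2 kb) and chr22:23081562-23104285 (22.7 kb). RNA polymerase II was absent over longer stretches, chr22:22863168-23034951 (171.8 kb), chr22:22562588-22673193 (110.6 kb) and chr22:23063171-23153113 (89.9 kb). Antibody 1 peaks were missing from chr22:22598690-22862789 (264.1 kb), chr22:22380000-22535281 (155.3 kb) and chr22:22890922-23026515 (135.6 kb).

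Elsewhere the stretches without peaks followed the library. In the variable part of IGH antibody 1 was missing from its lower end up to 107154950 (825.0 kb) against IgG and up to 106945530 (615.5 kb) against input, and then from 76.3 kb and 36.4 kb. RNA polymerase II had 2 further stretches without peaks there, of 52.0 kb and 48.5 kb, and in IGK stretches of 193.8 kb and 31.9 kb. In the constant part antibody 2 was missing for at most 23.4, 23.2 and 18.9 kb against IgG and 30.5 kb against input, antibody 1 for 279.9 kb and 19.9 kb against IgG, and RNA polymerase II for up to 100.7 kb against input. Antibody 2 had the shortest maximum stretch of the 3 libraries in the constant part. It also had the most peaks there against IgG, 53 beside 32 of RNA polymerase II and 1 of antibody 1, and more peaks shorten stretches by construction.

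**Figure D3:**
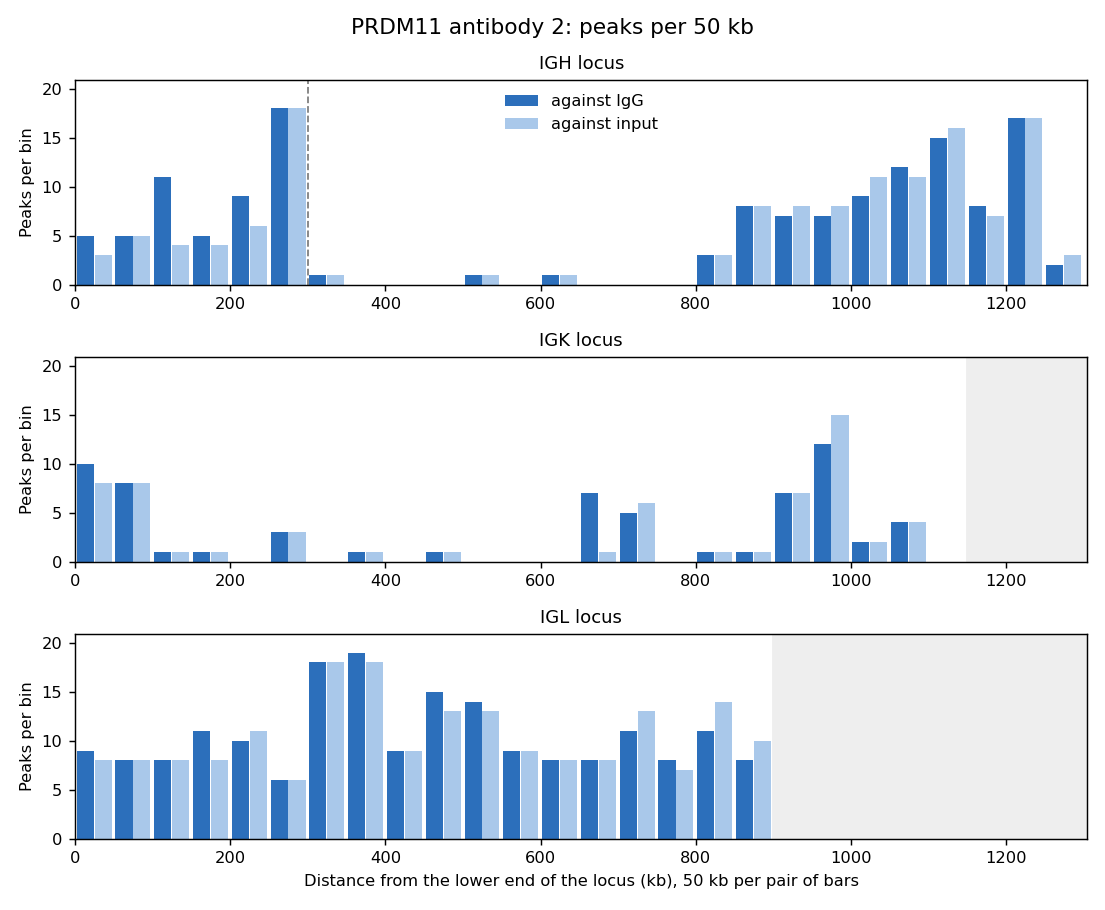
Antibody 2 peaks in successive bins of 50 kb, by distance from the lower end of each locus in kb; dark bars are lists against IgG and light bars lists against input, and the last bin of each locus is shorter. The bins in the middle of IGH hold 0 or 1 peak, while every bin of IGL holds at least 6.

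In number, antibody 2 peaks ranged from 56.6 per Mb in IGK (43.6 to 72.3) to 213.5 per Mb in IGL (184.2 to 246.1). The rest of chromosome 2 held 140.6 per Mb and the rest of chromosome 22 held 217.9, so by called peaks IGK was sparse for its chromosome and IGL was not. The lists do not mark unsequenced or unmappable DNA, and its part in the IGK density was not tested. The constant part of IGH had 176.7 per Mb (132.3 to 231.1) and the variable part 94.8 (76.3 to 116.4), beside 157.7 in the rest of chromosome 14. Against input the constant part had 133.3 per Mb (95.3 to 181.6) beside 154.6, so it lay above its chromosome with 1 control and below it with the other, within the interval both times.

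Antibody 2 peaks in the loci were narrow, as in the whole list. Of the 398 against IgG, 322 (80.9%) were exactly 123 bp wide, the shortest width in the list, against 78.4% of peaks outside the loci. The widest was chr14:107147625-107148338 in the variable part of IGH, 714 bp, and 849 bp was the greatest width against input. It began the densest 10 kb of that part, with 9 antibody 2 peaks of which 2 were in RNA polymerase II peaks. The next widest there were chr14:107150753-107151097 (345 bp) and chr14:107253108-107253447 (340 bp), the latter inside the 3047 bp RNA polymerase II peak.

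In the constant part of IGH the widest antibody 2 peaks were chr14:106324102-106324367 (266 bp), chr14:106312512-106312767 (256 bp) and chr14:106240297-106240522 (226 bp), and all 3 overlapped RNA polymerase II. In IGK they were chr2:90108234-90108503 (270 bp), chr2:90112848-90113076 (229 bp) and chr2:90115197-90115419 (223 bp), and none did against IgG; the first was listed against input too, where 65 bp of it lay in an RNA polymerase II peak. In IGL they were chr22:22933055-22933520 (466 bp), chr22:23236372-23236643 (272 bp) and chr22:23000257-23000521 (265 bp), and the second lay in the 6355 bp RNA polymerase II peak.

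Antibody 2 peaks lay in RNA polymerase II peaks more often than elsewhere. Against IgG, 65 of 398 (16.3%, 12.8 to 20.3) overlapped by at least 1 bp, against 3.2% of the whole list. Against input the count was 65 of 384 (16.9%), beside 6.29%. Since RNA polymerase II also covered 3.34% of the loci and 0.594% of the rest, the DNA available for overlap differed in the same direction, and its part in the result was not tested.

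The share differed between segments. It was 18 of 53 (34.0%, 21.5 to 48.3) in the constant part of IGH, 19 of 91 (20.9%, 13.1 to 30.7) in the variable part, 10 of 64 (15.6%, 7.76 to 26.9) in IGK and 18 of 190 (9.47%, 5.71 to 14.6) in IGL. The intervals of the constant part of IGH and of IGL did not overlap, and those of neighbours in this order did. The single 13809 bp domain held 9 antibody 2 peaks, most of them counted in the constant part. All of these lay in the domain, so leaving it out lowers the share of the constant part by construction. With 45 antibody 2 peaks left, the share was lower but stayed within its interval of 21.5 to 48.3. Whether it then still stood apart from IGL was not tested, so the separation from IGL holds only with the domain counted. In the same sequence of segments, RNA polymerase II peaks against IgG covered 8.52%, 2.09%, 2.02% and 4.60% of the DNA. Antibody 2 density was 176.7, 94.8, 56.6 and 213.5 peaks per Mb. Whether coverage or density had a part in the differing shares was not tested.

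The 13809 bp domain held 9 of the antibody 2 peaks against IgG and 8 against input. Of these 9, 8 fell at chr14:106323023-106330262, the densest antibody 2 interval to begin in the constant part, whose last peak lay just above the boundary. The 9 were between 123 and 266 bp wide, so none approached the width of the domain. Of the 465837 antibody 2 peaks of the whole list, 5017 began a window of 10 kb with at least as many.

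Seen from RNA polymerase II, 41 of 175 peaks (23.4%) overlapped antibody 2, near the 25.6% of the whole list; against input it was 41 of 215 (19.1%), beside 29.6%. Of the 19 peaks of at least 1000 bp, 13 (68.4%, 43.4 to 87.4) overlapped antibody 2, beside 65.9%, and against input 14 of 21 (66.7%) did, beside 77.4%.

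Few RNA polymerase II peaks of the loci held an antibody 1 peak. Against IgG 5 of 175 RNA polymerase II peaks (2.86%, 0.934 to 6.54) overlapped an antibody 1 peak, against 14.3% of the whole list. Against input it was 9 of 215 (4.19%, 1.93 to 7.80), against 29.4%. In both cases the list's share lay above the interval. RNA polymerase II peaks were also denser in the loci, 53.4 per Mb beside 16.7 outside against IgG and 65.5 beside 26.7 against input. Antibody 1 peaks were not denser there, with 3.96 per Mb beside 4.50 outside against IgG and 7.93 beside 18.0 against input. The part of these densities in the result was not tested.

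For wide RNA polymerase II peaks the gap was in the same direction. Of the 19 of at least 1000 bp, 1 (5.26%, 0.133 to 26.0) overlapped antibody 1, against 38.6% of such peaks in the whole list. Against input, 4 of 21 did (19.0%, 5.45 to 41.9), against 65.5%. The 13809 bp domain, the widest in its list, had no antibody 1 peak against IgG but 3 against input, at chr14:106317380-106317558, chr14:106318313-106318647 and chr14:106318878-106319000.

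**Figure D4:**
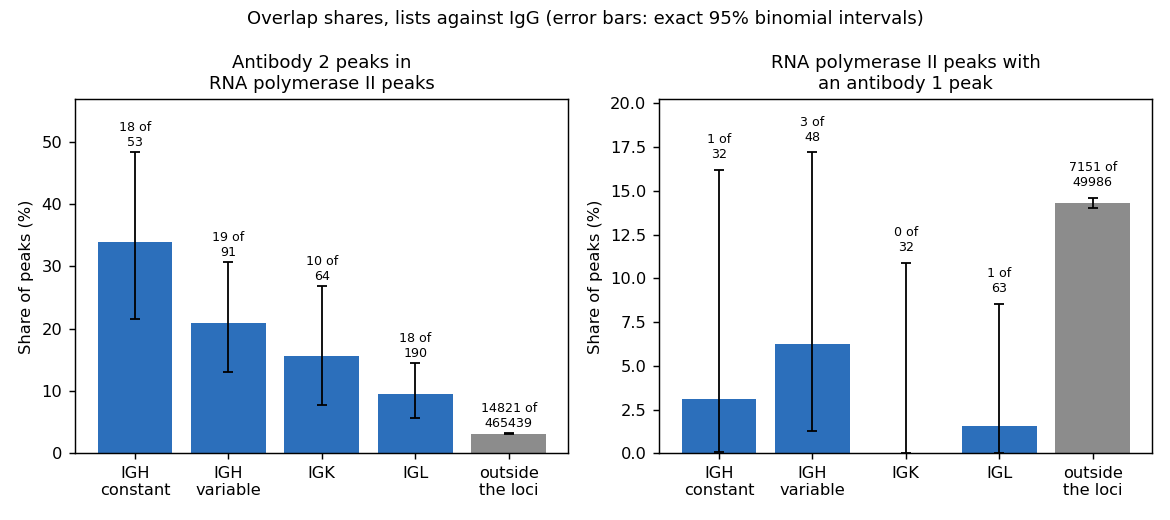
Share of antibody 2 peaks that overlap RNA polymerase II (left) and of RNA polymerase II peaks that overlap antibody 1 (right), in percent, for each segment and for all peaks outside the loci; lists against IgG, with exact 95% binomial intervals as error bars and the counts above. On the left every segment is above the 3.18% outside the loci; on the right the bars are below the 14.3% outside, although the intervals of both IGH parts reach past it.

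The 13 antibody 1 peaks against IgG were 123 to 727 bp wide and lay 1 in the constant part of IGH, 4 in the variable part, 0 in IGK and 8 in IGL. Their density, 3.96 per Mb (2.11 to 6.78), included in its interval the 4.50 per Mb outside the loci, but against input it was 7.93 per Mb (5.18 to 11.6) beside 18.0 outside, which lay above the interval. IGK had none, which allows up to 3.26 per Mb, and the rest of chromosome 2 held 3.49. Against input IGK had 4, the widest of them chr2:89219263-89219465 (203 bp). Against input the density in IGK was 3.54 per Mb (0.964 to 9.06) beside 11.4 in the rest of chromosome 2, and in the constant part of IGH it was 16.7 (5.41 to 38.9) beside 7.42, the reverse of the 3.33 beside 5.01 against IgG.

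Of the 13, 6 (46.2%, 19.2 to 74.9) overlapped RNA polymerase II, beside 55.2% of the whole list, and 6 overlapped antibody 2, beside 47.2%. Against input 13 of 26 overlapped RNA polymerase II, beside 44.9%, and 12 (46.2%) overlapped antibody 2, beside 34.8%. These intervals include the shares of the whole lists.

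All 3 libraries met at 3 places against IgG, where 3 of 13 antibody 1 peaks overlapped both other lists, beside 32.6% of the whole list. The first, in the constant part of IGH, was the antibody 1 peak chr14:106309928-106310062 (135 bp), with 118 bp in an RNA polymerase II peak of 251 bp and 12 bp in an antibody 2 peak of 123 bp. The second was chr14:107154951-107155271 (321 bp), with 297 bp in RNA polymerase II and 214 bp in antibody 2. The third, chr14:107252830-107253556, was the widest antibody 1 peak of the loci at 727 bp, lay wholly within the 3047 bp RNA polymerase II peak, and contained the antibody 2 peak of 340 bp.

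These 3 were all in IGH and all were called against input as well. Against input, 8 of 26 antibody 1 peaks overlapped both others, beside 24.0% of that list. Beyond the same 3 places, they were 2 of the peaks in the 13809 bp domain (those of 335 and 123 bp), chr14:106986641-106986763, chr14:107252030-107252152 within the 3047 bp peak's counterpart, and chr22:22379948-22380187 at the lower edge of IGL.

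The remaining antibody 1 peaks of IGH against IgG were chr14:107173374-107173538 (165 bp), with neither of the others, and chr14:107176417-107176539 (123 bp), with 37 bp in RNA polymerase II and not listed against input. In IGL, chr22:22862790-22862986 (197 bp) and chr22:22863059-22863301 (243 bp) flanked and both touched 1 RNA polymerase II peak of 297 bp, chr22:22862871-22863167, with no antibody 2 peak within 4238 bp. This RNA polymerase II peak bounded the 171.8 kb stretch without RNA polymerase II.

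In IGL, 3 antibody 1 peaks overlapped antibody 2 alone, chr22:22598531-22598689 (159 bp), chr22:22890766-22890921 (156 bp) and chr22:23205258-23205380 (123 bp), by 49, 28 and 104 bp. The other 3, chr22:22535282-22535418 (137 bp), chr22:23026516-23026657 (142 bp) and chr22:23116593-23116737 (145 bp), overlapped neither list. None of the 8 lay in the group that held 55.5% of the RNA polymerase II bases of IGL, where antibody 2 had 8 peaks. Against input 1 antibody 1 peak did, chr22:23226338-23226489 (152 bp).

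Peaks against IgG were found again against input at the lowest share in the constant part of IGH for antibody 2 and RNA polymerase II. Of the antibody 2 peaks against IgG, 349 of 398 (87.7%, 84.1 to 90.8) were also called against input, beside 93.2% of the whole list, but only 36 of 53 (67.9%, 53.7 to 80.1) in the constant part of IGH. For RNA polymerase II, 154 of 175 peaks were found again (88.0%), beside 89.4%, with 23 of 32 (71.9%, 53.3 to 86.3) in the constant part of IGH and 32 of 32 in IGK. In the other direction, 24 of 28 RNA polymerase II peaks against input in the constant part (85.7%) were found against IgG. This was the highest share of the 4 segments, which together had 152 of 215 (70.7%), beside 52.4% of the whole list. Of the antibody 1 peaks, 9 of 13 (69.2%, 38.6 to 90.9) were found again, beside 81.3%. All 19 RNA polymerase II peaks of at least 1000 bp were covered by RNA polymerase II peaks against input over most of their length.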

How the data were processed

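ChIP-seq of U2932 cells comprised 3 precipitates, 1 library each, and the IgG and input controls. Bowtie (version 0.12.7), SAMtools, MACS2 (version 2.0.9) and build hg19 are listed in the submitters' processing notes, with neither settings nor order. The deposited peak lists, made by the authors, hold chromosome, start and end with no score; the control and the q threshold, 0.1, stand in their names. Duplicate handling, reads with several positions and depth are not given in the sources used here, and each can affect repetitive loci. Samples were grouped by antibody as labelled.

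Starts were converted to count from 1. Peaks were assigned by midpoint, and an overlap was at least 1 bp. Named regions were, per segment, the 3 widest peaks of each list against IgG and the widest against input, all antibody 1 peaks against IgG, RNA polymerase II peaks of at least 1000 bp, the 3 longest stretches without a peak and places where 3 libraries met. The loci and lists were chosen with earlier results of these data known. Densest windows and groups were added after seeing the data. Python (3.11.15), pandas (2.3.3), NumPy (2.4.6), SciPy (1.17.1) and matplotlib (3.10.9) were used, and overlaps were tested on simulated data.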

Additional observations from a re-analysis of the deposited data

How the results depend on the processing

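Of 211 alternative values, 161 stayed within 1.5 times the reported count or length, or within the interval of the reported share, and 50 did not. Comparisons with the rest of the list or chromosome turned with lists against input for, among others, the antibody 2 and antibody 1 densities in the constant part of IGH, the overlap of antibody 1 with RNA polymerase II (46.2% beside 55.2%, then 50% beside 44.9%) and with antibody 2 (46.2% beside 47.2%, then 46.2% beside 34.8%), the antibody 1 peaks on both others (23.1% beside 32.6%, then 30.8% beside 24.0%) and that of wide RNA polymerase II peaks with antibody 2 (68.4% beside 65.9%, then 66.7% beside 77.4%). With lists against input, antibody 1 had 26 peaks (4977 bp), with 5 peaks and 897 bp in the constant part of IGH, 4 peaks and 609 bp in IGK, and a longest stretch of 144.4 kb in the constant part. Keeping only peaks of 200 bp or wider left 3 antibody 1 peaks (1291 bp; 0, 2 and 1 in the constant part, the variable part and IGL, with 0 bp and 243 bp in the first and last), 30 antibody 2 peaks (8020 bp; 3, 10, 4 and 13 peaks and 748, 3072, 928 and 3272 bp in the 4 segments) and 114 RNA polymerase II peaks (21, 29 and 21 in both IGH parts and IGK). The overlap of antibody 1 with RNA polymerase II then rose to 100% in all, in the variable part and in IGL, that with antibody 2 to 100% in the variable part and 0% in IGL, and that of antibody 2 with RNA polymerase II to 26.7% in all, 100% in the constant part and 15.4% in IGL. The longest stretches without antibody 2 became 210.3, 581.1, 954.1 and 234.4 kb in the 4 segments, and those of IGL 483.1 kb for antibody 1 and 328.9 kb for RNA polymerase II; fewer peaks lengthen stretches by construction. Requiring 50% of a peak to be covered lowered the overlap of antibody 1 with antibody 2 to 15.4% (0% in the constant part). Allowing 1000 bp between peaks raised that of antibody 2 with RNA polymerase II to 23.9% (33.0% in the variable part, 16.3% in IGL). Counting the 13809 bp domain with the variable part left 11751 bp of RNA polymerase II peaks in the constant part and put 33844 bp in the variable part; assignment by any overlap counted the domain in both parts (25560 and 33844 bp). No paired analysis was possible because each antibody had 1 library. A stricter threshold was not run, since the lists carry no scores, and depth is unknown.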
